A study of Homo sapiens with 36 samples.

Results

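The 36 genes described here encode the enzymes and membrane proteins of the lysosome, its proton pump, the proteins that build autophagosomes, and TFEB, the transcription factor that controls many of them. They were taken as a named list of symbols with no cut on their values. The list was chosen with earlier results of these data known. By Ensembl identifier, 36 of the 36 were found among the 15891 genes of the deposited table. Lysosomes are acidic organelles in which hydrolases break down proteins, glycans and lipids, and autophagy delivers cytoplasm to them inside vesicles coated with LC3 and GABARAP proteins. When the kinase mTORC1 at the lysosomal surface is inactive, TFEB enters the nucleus and binds the CLEAR element, a form of the E-box, in the promoters of lysosomal and autophagy genes. Cells that become senescent often enlarge this compartment, and acid beta-galactosidase, the product of GLB1, is the usual stain for senescent cells.

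The cells were HCT-116, an established human colorectal cancer line that carries wild-type p53, exposed to 10 µM 5-fluorouracil (5-FU), a fluoropyrimidine that blocks thymidylate synthesis and is built into RNA, for 48 h. Samples were taken on 6 days, D0 before the drug was added and D1, D2, D7, D14 and D16 after, and what the cells received between the end of exposure and D16 is not given in the sources used here. On each day emetine was used to hold ribosomes on their messages, and polyadenylated RNA was sequenced from the cytoplasmic extract and from a sucrose gradient pool of messages that carry more than 3 ribosomes, called the heavy pool below. That makes 12 groups of 3 libraries with the letters A, B and C, which the labels give as the batch. D0 was the only group without drug, so time in culture and drug cannot be told apart. Whether the letters stand for separate cultures is not given in the labels, so the p-values measure the spread between these libraries, which may be technical.

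The cytoplasmic libraries held 41.0 to 103.6 megareads and the heavy pool libraries 46.1 to 55.7 megareads. The cytoplasmic D7 library A stood apart, with 23.11% of its reads in ribosomal protein genes and a spread of 0.553 log2 units around its group mean. Libraries within a group differed more in the cytoplasm (standard deviation 0.16 to 0.553 over genes) than in the heavy pool (0.108 to 0.208), and a member's difference had a standard error of 0.15 to 0.40 for cytoplasmic and of 0.08 to 0.16 for heavy pool libraries. Deviations from the group mean followed GC content across genes in the cytoplasmic D14 library B (r = 0.79) and D16 library B (r = 0.74), and the members' median lay 0.28 and 0.24 above the group there. The epithelial markers were listed for 5 of 5 genes, the macrophage markers for 0 of 7 and the fibroblast markers for 1 of 5. In the cytoplasm the summed counts of the epithelial markers were 263337 to 282279 at D0, 619953 to 710113 at D1, 423362 to 667200 at D2, 678755 to 936544 at D7, 351259 to 477781 at D14 and 329943 to 426760 at D16. In the heavy pool they were 360321 to 416783 at D0, 645390 to 917494 at D7 and 294013 to 331352 at D16, and between 351844 and 514171 on the other days. The 1 fibroblast marker went from 334 to 382 at D0 to 701 to 824 at D1 in the cytoplasm and from 440 to 483 to 766 to 865 in the heavy pool. The part of these markers in the results was not tested. These are bulk samples, in which fewer cells of a type and less RNA per cell cannot be told apart.

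Values below are the deposited normalised counts, and differences are on the log2(value + 1) scale with their standard error. A member was called when limma's Benjamini-Hochberg adjusted p over all genes tested was under 0.05. A call is named stable where it kept its direction and its side of the threshold with another pseudocount, with no filter, with scaling to total reads, with edgeR, with DESeq2, with the letter as a block, with library weights and with each library left out in turn. For comparisons between the fractions a stable call also had to hold with the collection as a block. That block takes the difference between the fractions within each day and letter. Centring on GC content or exon length is not among these settings. Stability was worked out for the members alone, so counts of stable calls have no share of all genes beside them.

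The 36 messages differed widely in level before the drug. Per kilobase of exon, CD63 (4922 ± 470, mean ± SD, n = 3) and CTSZ (4738 ± 253) led in the D0 cytoplasm, and their ranges of 1 SD overlapped. SQSTM1 (2813 ± 168) and PSAP (2607 ± 143) followed, with overlapping ranges of 1 SD. TFEB (54.0 ± 5.55) and HEXA (25.0 ± 2.96) had the lowest normalised counts per kilobase. The heavy pool order was led by SQSTM1 (5663 ± 429) and PSAP (4616 ± 346), and TFEB (71.3 ± 3.75) and HEXA (31.7 ± 4.34) were again lowest. Together the 36 genes took 0.245 to 0.261% of the reads of the D0 cytoplasm and 0.290 to 0.362% at D2. Their share of the heavy pool was 0.287 to 0.310% at D0, 0.428 to 0.475% at D2, 0.335 to 0.343% at D7 and 0.350 to 0.370% at D16, so D2 lay above every other day without overlap in that pool.

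Because TFEB acts through the E-box, the promoters of the members were searched for the letters CACGTG, which read the same on both strands, and for TCACGTG on either strand, which contains the first motif. A RefSeq promoter (GRCh38.p14, 250 bases before to 50 bases after the transcript start) was matched for 28 of the 36 members, and for LAMP2, CTSB, PSAP, HEXA, ASAH1, ATP6V1A, ATP6V1B2 and ATP6V1H none was used. CACGTG was present in 8 of the 28 (28.6%), against 7.26% of 35116 RefSeq promoters and 10.1% of the 10730 promoters of genes listed in the table. TCACGTG was present in 7 of the 28 (25.0%), against 3.71% and 5.87%. The 8 were NEU1, CTSD, CD63, LAMP1, ATP6V0D1, GAA, MCOLN1 and CTSA. These shares use no count of this series and describe the list, since the CLEAR element lies in promoters of lysosomal genes. A match describes the letters in this window and is not evidence of binding. Sequences are given for 4 of the 8 promoters. NEU1, CTSD and GAA hold CACGTG and had stable rises at D2 in both fractions, and LAMP1 held the most copies (6). TFEB, MAP1LC3B, GABARAPL2 and GABARAPL1 also had stable rises at D2 in both fractions, and CACGTG was absent from their promoters. Whether CACGTG and the early rises go together was not tested. Capitals mark CACGTG, or TCACGTG on the strand where it occurs, and each sequence is read 5′ to 3′ on the strand of its gene. NEU1 lies at chr6:31862772-31863071 (minus strand, 1 copy, 126 bases before the start), CTSD at chr11:1763878-1764177 (minus strand, 1 copy, 47 bases before), GAA at chr17:80101331-80101630 (plus strand, copies 76 and 31 bases before) and LAMP1 at chr13:113296989-113297288 (plus strand, the nearest copy 1 base before the start).
NEU1: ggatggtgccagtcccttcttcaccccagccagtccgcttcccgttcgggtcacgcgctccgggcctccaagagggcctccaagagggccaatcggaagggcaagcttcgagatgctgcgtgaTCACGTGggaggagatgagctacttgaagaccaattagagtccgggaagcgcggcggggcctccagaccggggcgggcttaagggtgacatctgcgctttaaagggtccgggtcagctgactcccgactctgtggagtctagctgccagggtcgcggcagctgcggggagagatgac
CTSD: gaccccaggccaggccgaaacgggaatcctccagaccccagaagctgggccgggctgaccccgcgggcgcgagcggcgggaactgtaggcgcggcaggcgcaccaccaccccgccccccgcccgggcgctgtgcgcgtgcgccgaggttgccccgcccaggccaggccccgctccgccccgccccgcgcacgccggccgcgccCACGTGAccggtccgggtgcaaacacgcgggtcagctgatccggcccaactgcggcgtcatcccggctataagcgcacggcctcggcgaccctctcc
GAA: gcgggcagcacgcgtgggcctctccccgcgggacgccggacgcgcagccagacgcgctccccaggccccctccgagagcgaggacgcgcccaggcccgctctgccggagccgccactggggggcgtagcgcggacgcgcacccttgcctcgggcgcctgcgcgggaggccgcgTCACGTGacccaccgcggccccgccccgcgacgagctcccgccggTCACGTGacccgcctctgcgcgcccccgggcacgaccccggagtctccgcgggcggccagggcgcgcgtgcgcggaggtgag
LAMP1: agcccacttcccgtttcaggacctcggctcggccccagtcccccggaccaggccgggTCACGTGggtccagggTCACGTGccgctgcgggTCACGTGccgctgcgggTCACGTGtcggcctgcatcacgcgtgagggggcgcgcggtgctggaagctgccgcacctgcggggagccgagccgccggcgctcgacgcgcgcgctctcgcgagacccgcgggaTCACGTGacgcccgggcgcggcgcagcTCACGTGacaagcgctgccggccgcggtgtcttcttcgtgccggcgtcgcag

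In the cytoplasm the members that passed the test during drug exposure were all higher than before it, and those of later days went both ways. At D1, 12 of the 36 members were higher (10.9% of all genes tested) and 0 were lower (7.09%), with a median difference of 0.43 against -0.01 over all genes. The 2 stable calls were NEU1 and CTSD, and TFEB was lost with scaling to total reads alone. The D1 count fell to 7, 5 and 4 without the D0 library A, B or C and to 3 without the D1 library B. The D1 difference followed GC content across genes (r = 0.47 over all genes and 0.56 over the members), and after each library was centred on GC content, an alternative chosen after seeing the data, 11 members were higher, 9 of them among the 12. Of 15888 genes, 1662 were higher after that centring. At D2, 11 members were higher (14.2%) and 0 were lower (10.6%), with a median of 0.32 against -0.00, and 9 of the calls were stable (NEU1, TFEB, CTSD, PSAP, GAA, GABARAPL2, CTSB, MAP1LC3B and GABARAPL1). For the lower calls of both days, limma gave 0 members at an unadjusted p under 0.05, and edgeR and DESeq2 called 0. Library weights called 1 member lower at D1 and 2 at D2, against 3793 and 4842 of 15889 genes. At D2 centring on GC content called 1 lower, against 2604 of 15888 genes. Centring on exon length also called 1 lower at D2, against 1924 of 15890.

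At D7, 8 cytoplasmic members were higher (18.3% of all genes) and 6 lower (15.7%), with a median of 0.02 against 0.01. These shares are near those of all genes. The stable rises were MAP1LC3B, CTSD, GABARAPL2 and GABARAPL1, and the stable falls were TPP1, NPC1, GUSB and GLB1. Scaling to total reads gave 6 higher and 11 lower, beside 1891 higher and 3335 lower of 15887 genes. At D14, 3 members were higher (7.75%) and 1 was lower (5.05%), and at D16, 3 were higher (9.47%) and 4 were lower (7.26%). PSAP and GABARAPL1 were the stable calls on both of those days, and no fall was stable. Scaling to total reads gave 3 higher and 0 lower at D14 and 3 and 1 at D16, edgeR gave 3 and 0 at D14 and 4 and 0 at D16, and DESeq2 gave 5 and 4 at D16. Of 15887 genes, that scaling gave 1260 higher and 365 lower at D14 and 1555 and 581 at D16. Of 15889 genes, edgeR gave 1335 and 603 at D14 and 1639 and 982 at D16. DESeq2 gave 2085 and 1319 of 15882 genes at D16. Without the D0 library A, B or C, or the D14 library A or C, 2 members were called at D14. At D16 the count fell to 3 without the D0 library A or the D16 library C, and to 2 without the D0 library B or C or the D16 library A. Over the 5 days together, 30 of the 36 members changed in the cytoplasm, against 61.5% of all genes.

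In the heavy pool 36 of 36 members changed by the test over all 5 days, near the share of all genes (95.1%). Calls were mostly higher at D2 and mostly lower at D7. At D1, 11 members were higher (20.1%) and 5 lower (26.9%), and at D2, 20 were higher (30.4%) and 7 lower (34.5%), with medians of 0.08 and 0.34 against -0.06 and -0.03 over all genes. At D7, 8 were higher (27.0%) and 18 lower (36.5%), with a median of -0.27 against -0.11. At D14 the counts were 14 higher (34.4%) and 15 lower (37.6%), and at D16 they were 17 higher (36.2%) and 15 lower (36.6%). The stable calls numbered 9 higher and 1 lower at D1, 18 and 4 at D2, 7 and 11 at D7, 14 and 7 at D14, and 14 and 9 at D16. The share of all genes with stable calls was not worked out, so these counts cannot be set against it. Scaling to total reads raised the median of all genes in the heavy pool by 0.20, 0.38, 0.29, 0.32 and 0.42 from D1 to D16. It gave 17 higher and 1 lower at D1, 26 and 4 at D2, 13 and 11 at D7, 18 and 7 at D14, and 19 and 9 at D16. Over all genes it gave 4917 higher and 2325 lower of 15874 at D1, 7823 and 3093 at D2 and 6416 and 3523 at D7. At D14 it gave 7372 and 3961 genes, and at D16 8440 and 3490. edgeR gave 13 and 3 at D1, 11 and 14 at D7 and 16 and 9 at D14, and DESeq2 gave 13 and 3 at D1. Of 15852 genes, edgeR gave 3696 and 3553 at D1, 4920 and 4927 at D7 and 6158 and 5214 at D14. DESeq2 gave 3556 and 3929 of 15852 genes at D1. With scaling to total reads, called falls turned to values just above 0 for ATP6V1H and CTSA at D2, ATP6V1H at D7, TFEB, LAMP1 and MCOLN1 at D14, and GUSB and NPC1 at D16.

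**Figure D1:**
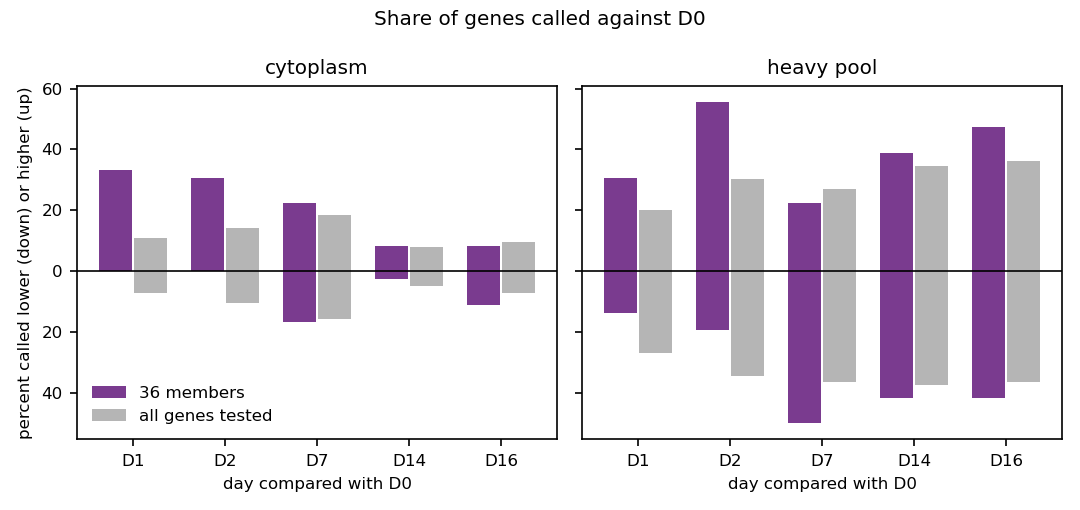
Percent of the 36 members (purple) and of all genes tested (grey) called higher (bars up) or lower (bars down) than D0 on each day, in the cytoplasm and the heavy pool. In the heavy pool 20 of the 36 members were higher at D2 and 18 were lower at D7, and with scaling to total reads those counts were 26 and 11. With that scaling 7823 of 15874 genes were higher at D2 and 3523 were lower at D7.

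The steps between days do not use D0. From D2 to D7, 20 members fell in the heavy pool (28.3%) and 6 rose (28.7%), with a median of -0.52 against 0.02, and 19 of the falls were stable. They took in 6 of 7 membrane proteins, 5 of 6 proteases and 7 of 9 glycosidases and sphingolipid enzymes. In the cytoplasm 10 members fell over that step (11.8%) and 1 rose (9.48%), with 7 falls stable. The cytoplasmic count was 7 lower and 0 higher without the D7 library A, and 17 lower and 2 higher with the letter as a block. The block gave 2638 lower and 2482 higher of 15889 genes. From D7 to D14, 16 members rose in the heavy pool (29.5%) and 12 fell (28.9%). The risers included 6 of 6 proteases, 5 of 7 membrane proteins and 5 of 9 glycosidases and sphingolipid enzymes, and the falls included 4 of 4 proton pump subunits. In the cytoplasm 12 rose (16.5%) and 7 fell (19.1%) over that step, and 14 and 1 did so with scaling to total reads. With that scaling 4576 of 15887 genes rose and 1426 fell. Between D14 and D16 the heavy pool gave 2 higher (8.68%) and 4 lower (10.2%), and 3 and 3 with scaling to total reads. Of 15874 genes, that scaling gave 2156 higher and 874 lower. The cytoplasm gave 0 higher (0.00%) and 0 lower (0.00%) over that last step, with 0 members at an unadjusted p under 0.05 in limma and 0 by edgeR and DESeq2. Library weights called 2 members lower, against 475 of 15889 genes.

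**Figure D2:**
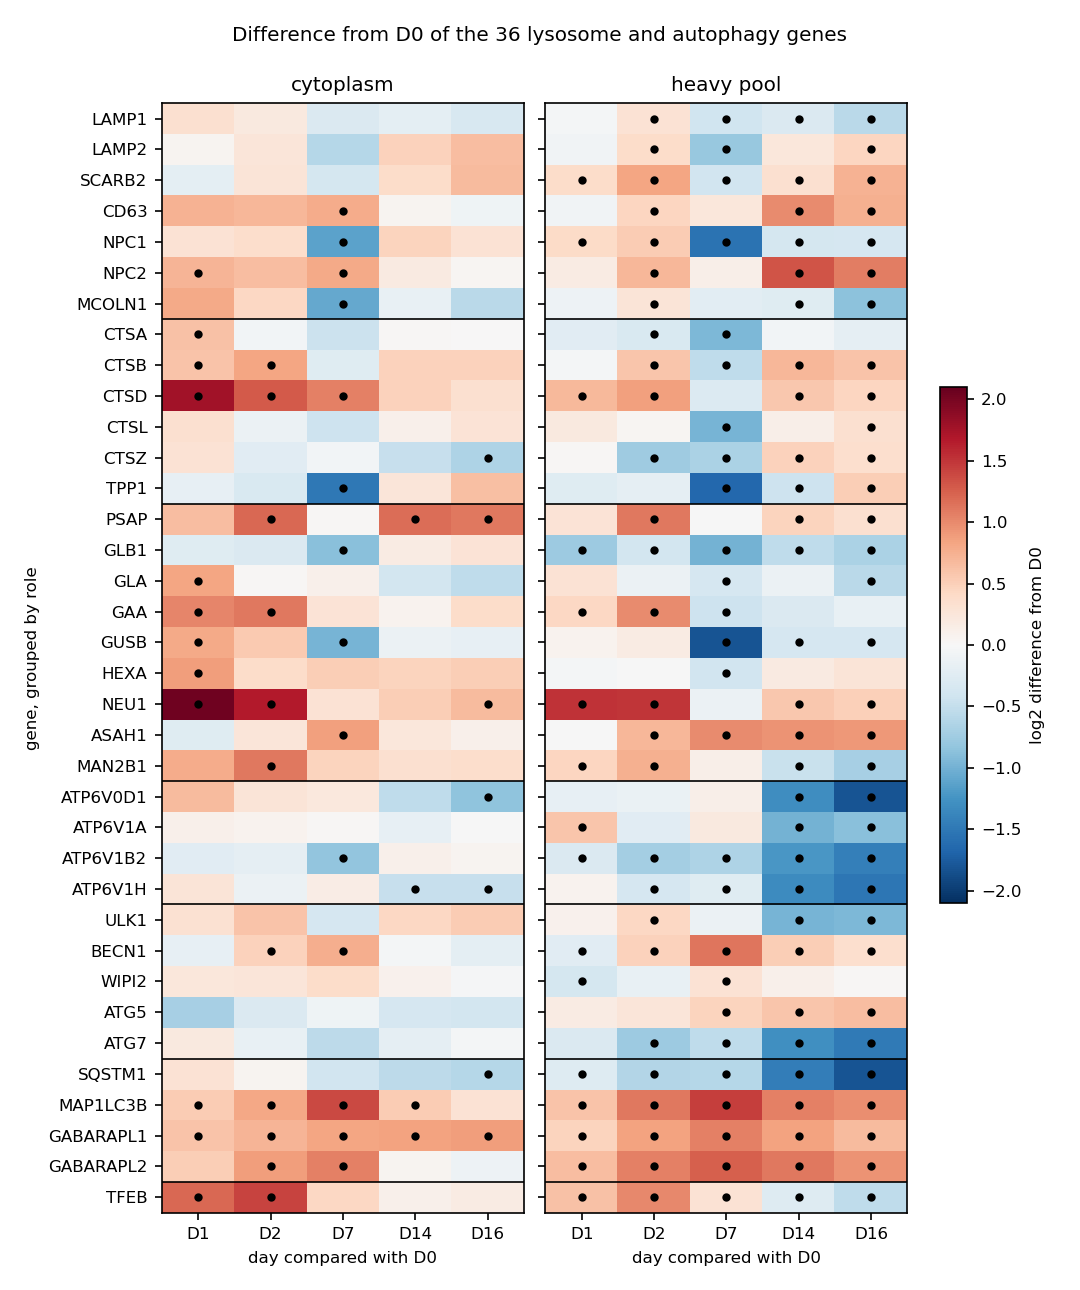
Log2 differences from D0 (color, scale at the side) of the 36 members, in rows grouped by role, on D1, D2, D7, D14 and D16 in the cytoplasm and the heavy pool, with a dot where the test was passed. In the heavy pool the 4 proton pump subunits are lower at D14 and D16 and the 3 LC3 and GABARAP genes are higher on all 5 days, and 8 other falls with a dot there turn to values just above 0 with scaling to total reads.

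TFEB (chr6:41683978-41736259, minus strand, GRCh38), the transcription factor of the list, rose in both fractions at D2. Its cytoplasmic normalised counts were 329.3, 269.7 and 316.6 at D0, 663, 765 and 696.3 at D1, 919.1, 839.6 and 705.9 at D2, 293.6, 436.1 and 544.2 at D7, 276.8, 457.5 and 280.2 at D14 and 340.3, 364.2 and 322.6 at D16. Every D1 and D2 library lay above every D0 library, and the ranges of the later days overlapped D0. The cytoplasmic difference was 1.42 ± 0.25 (adjusted p = 0.000369) at D2, a stable call, and 1.21 ± 0.25 (adjusted p = 0.0027) at D1, where scaling to total reads gave 0.97 (adjusted p = 0.0509). Heavy pool counts were 427.3, 391.3 and 390 at D0, 611.9, 602.4 and 641.6 at D1, 749.1, 815.5 and 875.8 at D2, 509.1, 458.6 and 530.5 at D7, 334.2, 323.3 and 342.5 at D14 and 326.1, 282.7 and 228.1 at D16. The pool rose by 0.62 ± 0.12 (adjusted p = 0.000204) at D1 and 1.01 ± 0.12 (adjusted p = 1.28e-07) at D2, both stable. At D16 all 3 libraries were under the D0 libraries, with a difference of -0.54 ± 0.12 (adjusted p = 0.000327) that became -0.12 (adjusted p = 0.396) with scaling to total reads.

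Of the 7 membrane proteins, 7 were higher at D2 of the heavy pool (30.4% of all genes) with a median of 0.45, 5 of them stably (SCARB2, NPC2, NPC1, CD63 and LAMP2). Their median in the cytoplasm at D2 was 0.37. NPC1 and NPC2 hand cholesterol out of the lysosome, and they parted after D2. The heavy pool counts of NPC1 (chr18:23506184-23586898, minus strand) were 1016, 1074 and 1094 at D0, 1485, 1753 and 1059 at D1, 1309, 1622 and 1708 at D2, 373.8, 341.4 and 372.5 at D7, 830.9, 783.6 and 848.2 at D14 and 929, 820.4 and 756.5 at D16. The 3 D7 libraries lay under every other library. NPC1 fell at D7 by -1.55 ± 0.14 (adjusted p = 2.69e-09) in the heavy pool and -1.12 ± 0.25 (adjusted p = 0.00309) in the cytoplasm, where the counts were 655.1, 677.5 and 762.8 at D0 and 376.2, 270.6 and 320 at D7.

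NPC2 (chr14:74476192-74494177, minus strand) held heavy pool counts of 2107, 2384 and 2147 at D0, 2367, 2992 and 2214 at D1, 3263, 3789 and 3749 at D2, 2660, 2474 and 2088 at D7, 5058, 5943 and 5556 at D14 and 4731, 4011 and 5286 at D16. Its D2, D14 and D16 libraries all lay above D0, and D7 overlapped D0. The heavy pool differences were 1.32 ± 0.12 (adjusted p = 1.96e-09) at D14 and 1.07 ± 0.12 (adjusted p = 4.5e-08) at D16, both stable. The cytoplasmic counts were 5061, 4384 and 4078 at D0, 8517, 7631 and 6167 at D1, 9883, 6438 and 5475 at D2, 11597, 6178 and 6463 at D7, 4717, 5759 and 4923 at D14 and 4516, 4852 and 4471 at D16, with D14 and D16 overlapping D0 and differences of 0.19 ± 0.24 and 0.04 ± 0.24 that did not pass the test.

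LAMP1, a main glycoprotein of the lysosomal membrane (chr13:113297241-113323672, plus strand), had the most E-box copies and small differences. Its cytoplasmic counts were 7347, 6573 and 7154 at D0, 7838, 9241 and 9763 at D1, 7405, 9261 and 7863 at D2, 5418, 5763 and 5965 at D7, 5223, 7407 and 5924 at D14 and 4807, 7187 and 4932 at D16, and no day passed the test. Its heavy pool counts were 8420, 8117 and 8032 at D0, 8562, 9178 and 6377 at D1, 9245, 10834 and 10143 at D2, 6141, 5584 and 6714 at D7, 6449, 5732 and 7716 at D14 and 5650, 5716 and 5217 at D16. The D2 libraries lay above D0 and the D7, D14 and D16 libraries under it, with differences of 0.30 ± 0.12, -0.42 ± 0.12, -0.31 ± 0.12 and -0.57 ± 0.12, the D14 value becoming 0.00 with scaling to total reads. None of these 4 calls was stable. SCARB2, the receptor that carries glucocerebrosidase to the lysosome, rose in the heavy pool at D2 (0.83 ± 0.08), D14 (0.34 ± 0.08) and D16 (0.73 ± 0.08). The tetraspanin CD63 was higher in the heavy pool at D14 (0.99 ± 0.12) and D16 (0.74 ± 0.12). LAMP2 stood at 0.38 ± 0.11 at D2, -0.80 ± 0.11 at D7 and 0.45 ± 0.11 at D16 in that pool, all stable calls, although centring on GC content, chosen after seeing the data, ended those of D2 (0.27, adjusted p = 0.106) and D16 (0.25, adjusted p = 0.129). MCOLN1, the calcium channel of the lysosome, fell there by D16 (-0.86 ± 0.11).

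Of the 6 proteases, 5 were lower in the heavy pool at D7 (36.5% of all genes), with a median of -0.81, and 5 were higher at D16 (36.2%), with a median of 0.40. Centring on exon length ended the D16 calls of CTSL (0.04, adjusted p = 0.81) and CTSZ (0.03, adjusted p = 0.82). CTSD, the aspartic cathepsin (chr11:1752752-1764573, minus strand), rose in both fractions at D1 and D2. Its cytoplasmic counts were 1396, 1044 and 1018 at D0, 4042, 4563 and 3117 at D1, 3887, 2818 and 1933 at D2, 2452, 2044 and 2686 at D7, 1402, 2025 and 1465 at D14 and 1406, 1617 and 1310 at D16. All D1, D2 and D7 libraries lay above D0, with differences of 1.76 ± 0.24 (adjusted p = 9.09e-05), 1.28 ± 0.24 (adjusted p = 0.00082) and 1.06 ± 0.24 (adjusted p = 0.00361), each stable. Its heavy pool counts were 1090, 1058 and 990.3 at D0, 1887, 1982 and 1264 at D1, 1682, 2188 and 1838 at D2, 850.6, 875.7 and 835.2 at D7, 1519, 1515 and 1590 at D14 and 1400, 1381 and 1494 at D16. There D1, D2, D14 and D16 lay above D0 and the 3 D7 libraries under it, with 0.68 ± 0.13 (adjusted p = 0.00014) at D1, 0.86 ± 0.13 (adjusted p = 3.61e-06) at D2 and -0.29 ± 0.13 at D7, which did not pass the test (adjusted p = 0.0501).

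TPP1, the tripeptidyl peptidase of the lysosome (chr11:6612763-6619485, minus strand), had the deepest trough at D7 among the proteases. Its cytoplasmic counts were 923.3, 914.8 and 930.7 at D0, 696.7, 826.8 and 965.3 at D1, 489.5, 960.2 and 864 at D2, 353.5, 331 and 297.8 at D7, 1059, 1374 and 923.1 at D14 and 1264, 2036 and 1125 at D16, and its heavy pool counts were 1064, 1042 and 994.2 at D0, 830, 1127 and 686.7 at D1, 823.9, 1006 and 888.6 at D2, 342.3, 281.2 and 371.8 at D7, 936.8, 678.6 and 712.8 at D14 and 1685, 1599 and 1178 at D16. In both fractions the D7 libraries lay under every other library. The D7 differences were -1.5 ± 0.26 (adjusted p = 0.00053) in the cytoplasm and -1.65 ± 0.16 (adjusted p = 1.33e-08) in the heavy pool, both stable. TPP1 then rose in the heavy pool from D14 to D16 by 0.94 ± 0.16 (adjusted p = 0.000723), and its D16 call against D0 (0.51 ± 0.16) was lost without the D16 library A (0.41, adjusted p = 0.0503).

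The cysteine cathepsins differed among themselves. CTSB was higher in the heavy pool at D2 (0.58 ± 0.11), lower at D7 (-0.54 ± 0.11) and higher at D14 (0.70 ± 0.11) and D16 (0.60 ± 0.11), all stable, and in the cytoplasm it rose at D2 (0.83 ± 0.19). CTSL fell in the heavy pool at D7 (-0.98 ± 0.14). CTSZ was lower in the heavy pool at D2 (-0.74 ± 0.11) and D7 (-0.67 ± 0.11) and higher at D14 (0.49 ± 0.11) and D16 (0.35 ± 0.11). Centring on exon length, chosen after seeing the data, took the last pair to 0.06 and 0.03. CTSA, the carboxypeptidase that shields NEU1 and GLB1 from breakdown, fell in the heavy pool at D7 (-0.95 ± 0.13).

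Among the 9 glycosidases and sphingolipid enzymes, NEU1 gave the largest early rise of the 36 members in both fractions. NEU1 is the lysosomal sialidase (chr6:31857659-31862906, minus strand). Cytoplasmic counts were 736.6, 608.5 and 606.4 at D0, 2461, 2757 and 2855 at D1, 1973, 2345 and 1898 at D2, 928.2, 693.4 and 784.7 at D7, 769.9, 1137 and 914.6 at D14 and 955.6, 1254 and 894.7 at D16. The D1 and D2 libraries lay far above D0 and D7 overlapped it. The D1 difference was 2.05 ± 0.20 (adjusted p = 1.5e-06), and it was 1 of 2 stable calls of that day. Its heavy pool counts were 697.7, 706.1 and 699.9 at D0, 2048, 2506 and 1590 at D1, 1697, 2150 and 2129 at D2, 654.1, 609.3 and 670.9 at D7, 1033, 954.7 and 1112 at D14 and 1053, 1004 and 915.5 at D16, with D1, D2, D14 and D16 above D0 and D7 under it. The pool differences were 1.52 ± 0.13 (adjusted p = 2.85e-09) at D1, 1.5 ± 0.13 (adjusted p = 7.19e-10) at D2, -0.12 ± 0.13 at D7, which did not pass the test, and 0.56 ± 0.13 (adjusted p = 0.000533) at D14.

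GUSB, the lysosomal glucuronidase (chr7:65960684-65982314, minus strand), fell furthest of the list at D7 in the heavy pool. The pool counts were 1397, 1459 and 1497 at D0, 1507, 1886 and 1252 at D1, 1392, 1794 and 1756 at D2, 346.7, 447.6 and 448.3 at D7, 1147, 1133 and 1133 at D14 and 1253, 1194 and 990.1 at D16, and the cytoplasmic counts were 1343, 1290 and 1262 at D0, 2053, 2523 and 2182 at D1, 1702, 2132 and 1885 at D2, 748.4, 521.8 and 747.3 at D7, 1086, 1441 and 1072 at D14 and 993.7, 1499 and 1040 at D16. The D7 libraries lay under all others in both fractions, and the differences were -1.82 ± 0.14 (adjusted p = 1.85e-10) in the heavy pool and -0.97 ± 0.21 (adjusted p = 0.0022) in the cytoplasm. GLB1 encodes the beta-galactosidase of the senescence stain, an enzyme that was not measured here. Its message was lower at D7, by -0.87 ± 0.22 (adjusted p = 0.00765) in the cytoplasm and -1.0 ± 0.14 (adjusted p = 2.04e-06) in the heavy pool. At D14 and D16 its cytoplasmic differences were 0.17 ± 0.22 and 0.28 ± 0.22 and did not pass the test. The D14 libraries overlapped D0, and every D16 library lay above D0 (935.5, 1359 and 1015 against 869, 905.4 and 923). In the heavy pool GLB1 was also lower at D1 (-0.77 ± 0.14, the one stable fall of that day), D2 (-0.39 ± 0.14), D14 (-0.53 ± 0.14) and D16 (-0.66 ± 0.14), with every library of those days under D0. Scaling to total reads took the last 3 to -0.01 (adjusted p = 0.931), -0.21 (adjusted p = 0.166) and -0.24 (adjusted p = 0.113).

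ASAH1, acid ceramidase, had heavy pool counts of 1697, 1765 and 1648 at D0, 1753, 1700 and 1636 at D1, 3049, 2740 and 2501 at D2, 3345, 3408 and 3486 at D7, 3185, 3254 and 3402 at D14 and 3203, 2752 and 3711 at D16. Its D2 and later libraries lay above every D0 library, and the differences at D7, D14 and D16 were 1.00 ± 0.10 (adjusted p = 9.36e-09), 0.95 ± 0.10 (adjusted p = 1.28e-08) and 0.91 ± 0.10 (adjusted p = 2.13e-08). PSAP, the precursor of the saposins that present lipids to these enzymes, held cytoplasmic counts of 8167, 8183 and 8979 at D0, 10111, 14387 and 15962 at D1, 17105, 23657 and 18110 at D2, 5724, 10042 and 10835 at D7, 16075, 25228 and 16896 at D14 and 16300, 24845 and 14802 at D16. It was raised at D2 (1.20 ± 0.27 (adjusted p = 0.00274)), D14 (1.17 ± 0.27 (adjusted p = 0.00732)) and D16 (1.11 ± 0.27 (adjusted p = 0.00846)) and stood at 0.02 ± 0.27 at D7. Heavy pool PSAP rose at D2 (1.10 ± 0.15) and D14 (0.46 ± 0.15), and the D14 call was lost after centring on exon length (0.30, adjusted p = 0.0789). GAA, the acid glucosidase, rose at D2 in the cytoplasm (1.10 ± 0.26) and the heavy pool (0.99 ± 0.15). MAN2B1, the acid mannosidase, was higher at D2 (0.74 ± 0.12) and lower at D16 (-0.69 ± 0.12) in the heavy pool. GLA, which removes galactose from lipids, had no stable call, and HEXA, a hexosaminidase subunit, had none against D0.

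**Figure D3:**
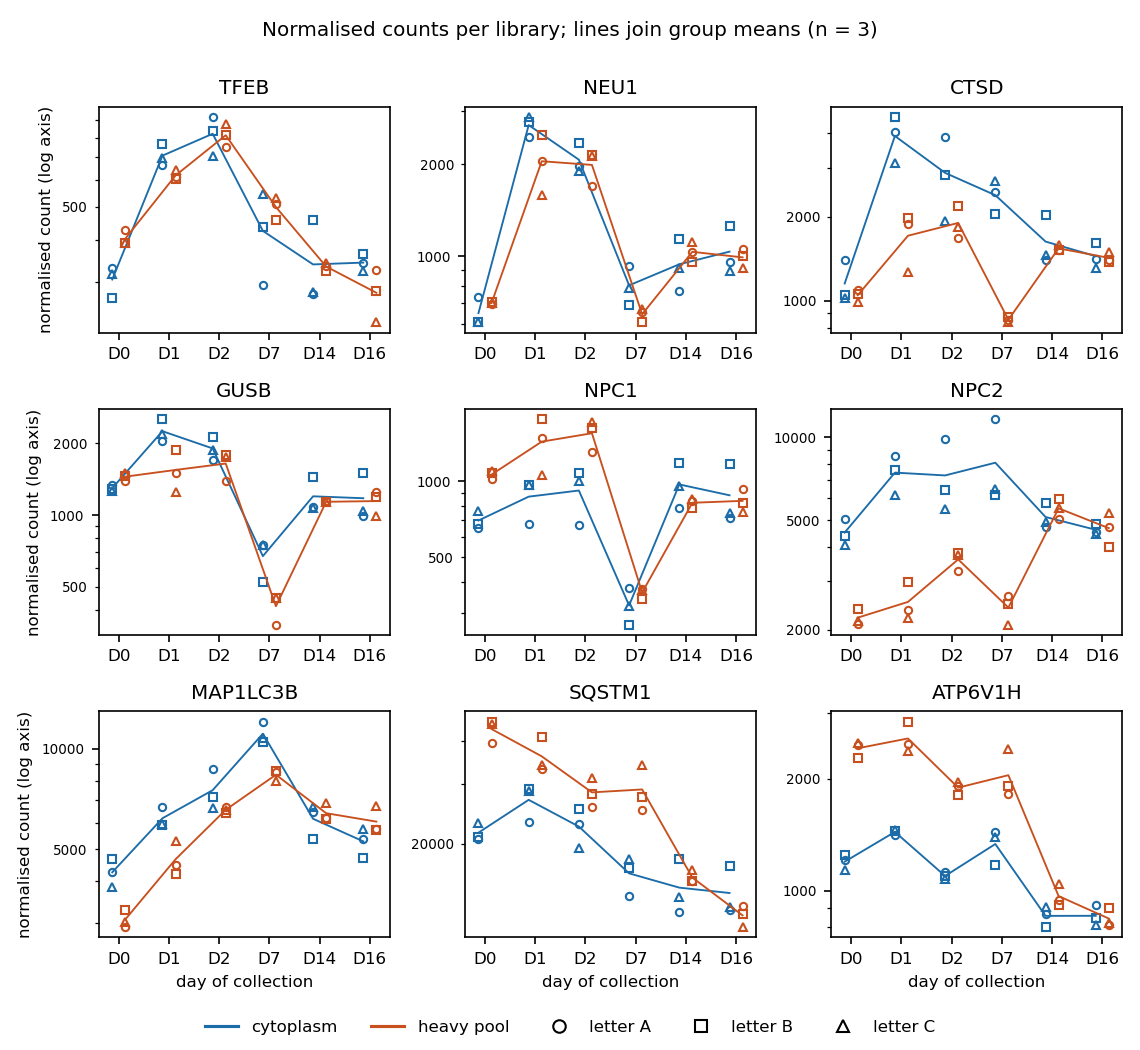
Deposited normalised counts (log axis, a scale for each gene) of 9 members in each library by day of collection, with the cytoplasm in blue, the heavy pool in orange, a symbol for each letter and lines through the group means. NEU1 is highest at D1 and D2, GUSB and NPC1 are lowest at D7, and SQSTM1 and ATP6V1H are lowest in the heavy pool at D16.

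The proton pump acidifies the lysosome, and its 4 members fell together in the heavy pool late in the series. At D14 and at D16, 4 of 4 were lower (37.6% and 36.6% of all genes), with medians of -1.27 and -1.48 against -0.02 and 0.02 over all genes. ATP6V0D1, a subunit of the membrane sector (chr16:67438014-67481237, minus strand), had heavy pool counts of 5117, 5607 and 5622 at D0, 4378, 5308 and 4916 at D1, 4860, 4757 and 5214 at D2, 5586, 5702 and 6593 at D7, 2169, 2215 and 2221 at D14 and 1607, 1505 and 1539 at D16. Days D0 to D7 were close to each other, and the D14 and D16 libraries lay under all of them. The differences were -1.31 ± 0.09 (adjusted p = 1.66e-11) and -1.81 ± 0.09 (adjusted p = 6.1e-14). The D16 level was also under that of D14, by -0.51 ± 0.09 (adjusted p = 0.00067). In the cytoplasm the counts were 3062, 2833 and 3284 at D0, 4062, 5408 and 5068 at D1, 3802, 4064 and 3231 at D2, 2286, 3907 and 5024 at D7, 1752, 2956 and 1836 at D14 and 1400, 2107 and 1654 at D16, with D14 overlapping D0 and D16 under it (-0.85 ± 0.26, a call lost with edgeR, with scaling to total reads and without the D0 library A, B or C or the D16 library A or C).

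ATP6V1H, a regulatory subunit of the sector that splits ATP (chr8:53715557-53843558, minus strand), had heavy pool counts of 2472, 2276 and 2502 at D0, 2482, 2849 and 2374 at D1, 1910, 1815 and 1958 at D2, 1826, 1912 and 2400 at D7, 946.8, 915.2 and 1043 at D14 and 810.9, 899.3 and 817.5 at D16. Its D14 and D16 libraries lay under every earlier one, with -1.32 ± 0.10 (adjusted p = 1.8e-10) and -1.52 ± 0.10 (adjusted p = 1.41e-11). Its cytoplasmic counts were 1208, 1250 and 1136 at D0, 1413, 1450 and 1458 at D1, 1122, 1094 and 1074 at D2, 1443, 1174 and 1392 at D7, 866.1, 800.5 and 903.2 at D14 and 918.5, 844.9 and 807.8 at D16, and the cytoplasmic differences were -0.48 ± 0.15 and -0.48 ± 0.15, calls that were lost when any 1 of the 6 libraries compared was left out. ATP6V1A and ATP6V1B2, subunits of the same sector, fell in the heavy pool at D16 by -0.87 ± 0.11 and -1.44 ± 0.09. Their cytoplasmic differences were -0.01 ± 0.25 and 0.06 ± 0.25. ATP6V1A had been higher in the heavy pool at D1 (0.58 ± 0.11 (adjusted p = 0.000185)).

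Among the 5 genes of autophagosome initiation and conjugation, calls went both ways. At D16 of the heavy pool 2 were higher (BECN1 and ATG5) and 2 were lower (ATG7 and ULK1), with a median of 0.03, and these shares are near those of all genes (36.2% and 36.6%). BECN1, a subunit of the lipid kinase complex that starts the vesicle (chr17:42810134-42833350, minus strand), had heavy pool counts of 3906, 3787 and 3785 at D0, 3156, 3349 and 3251 at D1, 5353, 5138 and 5593 at D2, 7528, 8598 and 8936 at D7, 5143, 5204 and 6099 at D14 and 4774, 4524 and 5459 at D16. Every library from D2 on lay above D0, and D7 was the peak, with 1.12 ± 0.09 (adjusted p = 5.96e-10). Cytoplasmic BECN1 counts were 5420, 5589 and 5253 at D0, 5019, 4794 and 4602 at D1, 8243, 7493 and 6991 at D2, 8734, 9747 and 9168 at D7, 5099, 4792 and 5988 at D14 and 4701, 4156 and 5376 at D16, where the D7 difference of 0.76 ± 0.15 (adjusted p = 0.00118) became 0.44 (adjusted p = 0.105) with scaling to total reads.

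ATG7, the activating enzyme for LC3 lipidation (chr3:11272309-11557665, plus strand), held heavy pool counts of 1485, 1516 and 1726 at D0, 1234, 1388 and 1212 at D1, 825.4, 898.7 and 1045 at D2, 913.4, 971 and 1421 at D7, 657.6, 674.8 and 612.5 at D14 and 580.2, 621 and 497.1 at D16. Its D14 and D16 libraries lay under every earlier library, with -1.28 ± 0.14 (adjusted p = 2.3e-08) and -1.48 ± 0.14 (adjusted p = 1.98e-09). In the cytoplasm its counts were 647.2, 660.7 and 805 at D0, 669.1, 873.2 and 914.6 at D1, 610.7, 738.1 and 558.1 at D2, 349.4, 454.2 and 689 at D7, 572.4, 772 and 528.3 at D14 and 572.2, 866.5 and 643.3 at D16, and no day passed the test. ULK1, the kinase that starts autophagy, fell in the heavy pool at D14 (-0.97 ± 0.14) and D16 (-0.94 ± 0.14), with cytoplasmic differences of 0.43 ± 0.40 and 0.54 ± 0.40. ATG5, part of the conjugation complex, rose in the heavy pool at D7 (0.46 ± 0.12), D14 (0.59 ± 0.12) and D16 (0.65 ± 0.12). WIPI2, which recruits that complex, rose in the heavy pool at D7 (0.30 ± 0.08).

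The messages of the proteins that coat the autophagosome rose in the heavy pool from D1 on, and that of the cargo receptor SQSTM1 fell, stably from D2 on. In the heavy pool 3 of the 4 were higher and 1 was lower at each of D1, D2, D7, D14 and D16. On those days 20.1 to 36.2% of all genes were higher and 26.9 to 37.6% lower. MAP1LC3B (chr16:87383995-87404779, plus strand), the LC3 gene most used as an autophagy marker, had heavy pool counts of 2920, 3277 and 3024 at D0, 4478, 4223 and 5276 at D1, 6698, 6418 and 6571 at D2, 8534, 8560 and 8004 at D7, 6188, 6157 and 6885 at D14 and 5729, 5698 and 6715 at D16. Every library after D0 lay above every D0 library, and D7 was highest. The differences were 1.10 ± 0.09 (adjusted p = 5.15e-10) at D2, 1.45 ± 0.09 (adjusted p = 1.37e-11) at D7 and 0.97 ± 0.09 (adjusted p = 2.79e-09) at D16. In the cytoplasm its counts were 4253, 4664 and 3858 at D0, 6701, 5919 and 5946 at D1, 8706, 7181 and 6660 at D2, 12073, 10471 and 10791 at D7, 6455, 5350 and 6694 at D14 and 5370, 4716 and 5738 at D16, and D7 was again highest, by 1.39 ± 0.16 (adjusted p = 1.14e-05). GABARAPL2 rose by 1.25 ± 0.08 in the heavy pool and 1.05 ± 0.23 in the cytoplasm at D7. GABARAPL1 was the member with a call on every day in both fractions, from 0.60 to 0.87 in the cytoplasm and from 0.47 to 1.06 in the heavy pool, although its cytoplasmic D1 call was lost with scaling to total reads and without the D0 library C or the D1 library B.

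SQSTM1 (p62) binds ubiquitinated cargo and LC3 and lies at chr5:179806398-179838078 (plus strand). Its heavy pool counts were 39566, 45539 and 44924 at D0, 33069, 41148 and 33915 at D1, 25581, 28040 and 31153 at D2, 25066, 27469 and 33935 at D7, 15495, 15509 and 16687 at D14 and 13134, 12423 and 11401 at D16. The D1 libraries overlapped D0, and the D1 call was lost with scaling to total reads (-0.07, adjusted p = 0.514), with edgeR, with DESeq2, with centring on GC content or exon length and without the D0 library B or C or the D1 library A or C. The D2, D7, D14 and D16 libraries lay under every D0 library, and D16 lay under D14. The differences were -0.62 ± 0.11 (adjusted p = 3.66e-05) at D2, -1.45 ± 0.11 (adjusted p = 1.17e-10) at D14 and -1.81 ± 0.11 (adjusted p = 2.12e-12) at D16, all stable. Its cytoplasmic counts were 20624, 20965 and 23002 at D0, 23181, 28818 and 28609 at D1, 22764, 25181 and 19361 at D2, 14082, 16921 and 18067 at D7, 12641, 17976 and 13947 at D14 and 12762, 17191 and 13026 at D16, with D1 above D0 in every library, D2 overlapping it, D7, D14 and D16 under it, and late differences of -0.40 ± 0.18, -0.55 ± 0.18 and -0.60 ± 0.18, of which the last alone passed the test and not stably.

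Polysome association is used here for the log2 difference between the heavy pool and the cytoplasm, and its change from D0 was tested as an interaction over all 36 libraries. Before the drug 12 members were higher in the heavy pool than in the cytoplasm (26.7% of all genes) and 7 were lower (19.1%). The 4 proton pump subunits were all among the 12, at 1.5 ± 0.19 for ATP6V1B2, 1.01 ± 0.12 for ATP6V1H, 0.85 ± 0.20 for ATP6V1A and 0.83 ± 0.20 for ATP6V0D1. NPC2 (-1.02 ± 0.20), CTSZ (-0.76 ± 0.17) and CD63 (-0.70 ± 0.22) were the lowest. Across genes this difference followed the summed exon length (r = 0.42 over all genes and 0.29 over the members), and after centring on exon length, chosen after seeing the data, 12 members were higher and 7 lower, with 18 of the 19 calls shared and LAMP2 lost (0.41, adjusted p = 0.0698). Of 15891 genes, 4323 were higher and 3226 lower after that centring.

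During exposure few association changes passed the test. At D1, 0 members were higher (0.787%) and 2 were lower (3.37%), CTSD (-1.08 ± 0.28) and CTSA (-0.84 ± 0.22). Neither was stable: the count was 0 without the D0 library B or C or the D1 library B of the cytoplasm, and 0 without any D0 library or the D1 library A or C of the heavy pool. It was 4 without the cytoplasmic D1 library A or the heavy pool D1 library B. The D1 change ran against GC content (r = -0.61 over all genes and -0.69 over the members), and 0 members were called after centring on GC content. That centring called 198 of 15890 genes. At D2, 0 were higher (0.0378%) and 0 lower (2.03%), and 1 was lower without the cytoplasmic D2 library C. At D7, 0 were higher (0.749%) and 2 lower (3.20%). Scaling to total reads gave 5 higher and 0 lower at D7, and it raised the median of all genes by 0.44, 0.49 and 0.61 at D1, D2 and D7. At D7 it called 1403 of 15891 genes higher and 185 lower. For the counts of 0, limma gave 2 higher members at an unadjusted p under 0.05 at D1, 1 higher and 4 lower at D2 and 2 higher at D7, and edgeR and DESeq2 called 0 in each. Library weights called 3 higher at D1 and 4 at D7, against 3322 and 1962 of 15891 genes. The letter as a block called 1 lower at D2, against 413 of 15891. Centring on GC content called 1 higher at D7, against 295 of 15890.

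CTSD was 1 of the 2 at D7, with -1.35 ± 0.28 (adjusted p = 0.0051), a call that held with each library left out and became -0.74 (adjusted p = 0.0553) with scaling to total reads. The other was GUSB (-0.85 ± 0.25), whose call was lost without any 1 of the D0 or D7 libraries except the cytoplasmic D7 library B. The D7 count was accordingly 1 in each of those fits and 5 without the cytoplasmic D7 library B.

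Late in the series the association of members changed in both directions. At D14, 7 were higher (11.5%) and 9 lower (16.7%), and at D16, 7 were higher (11.6%) and 10 lower (17.9%), while over all days 23 of the 36 changed (54.1%). With scaling to total reads the counts were 7 higher and 3 lower at D14 and 7 and 4 at D16. Of 15891 genes, that scaling gave 2478 higher and 673 lower at D14 and 2826 and 959 at D16. The D14 count was 10 (5 and 5) without the cytoplasmic D0 library A or D14 library B or the heavy pool D0 library C. Stable rises at D16 were GABARAPL2 (1.06 ± 0.24 (adjusted p = 0.00174)), NPC2 (1.03 ± 0.28 (adjusted p = 0.00557)), CTSZ (1.00 ± 0.24 (adjusted p = 0.0025)), MAP1LC3B (0.67 ± 0.17 (adjusted p = 0.00447)) and BECN1 (0.56 ± 0.16 (adjusted p = 0.00934)). Stable falls were ATP6V1B2 (-1.5 ± 0.26 (adjusted p = 0.000184)), ATG7 (-1.44 ± 0.29 (adjusted p = 0.000635)), SQSTM1 (-1.21 ± 0.21 (adjusted p = 0.000171)) and ATP6V1H (-1.04 ± 0.17 (adjusted p = 8.51e-05)). ULK1 had the largest fall at D14 (-1.40 ± 0.44) and, with ATP6V1B2, at D16 (-1.48 ± 0.44). Its calls were lost without the cytoplasmic D14 library B (-1.12, adjusted p = 0.0653) and D16 library B (-1.15, adjusted p = 0.0563), and that of D14 also after centring on exon length (-1.11, adjusted p = 0.0626). Scaling to total reads also ended the ULK1 calls of D14 (-1.23, adjusted p = 0.113) and D16 (-1.22, adjusted p = 0.106). The proton pump had 4 of 4 members lower on both days, with medians of -0.83 and -1.0 against -0.10 and -0.09 over all genes. Of these, scaling to total reads ended the calls of ATP6V1A (-0.65, adjusted p = 0.271 at D14 and -0.60, adjusted p = 0.304 at D16) and ATP6V0D1 (-0.61, adjusted p = 0.24 and -0.71, adjusted p = 0.159). Centring on exon length ended those of ATP6V0D1 on both days, and the collection as a block ended that of ATP6V1A at D14 (-0.82, adjusted p = 0.0603).

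These changes and the D0 difference between the fractions use the same D0 libraries, so their signs are not independent. At D14 the change also ran against summed exon length (r = -0.42 over all genes and -0.37 over the members), and at D16 likewise (-0.37 and -0.30). After centring on exon length, chosen after seeing the data, 7 members were higher and 4 lower at D14 and 7 and 9 at D16. Of 15891 genes, 1554 were higher and 1876 lower at D14 and 1812 and 2403 at D16.

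**Figure D4:**
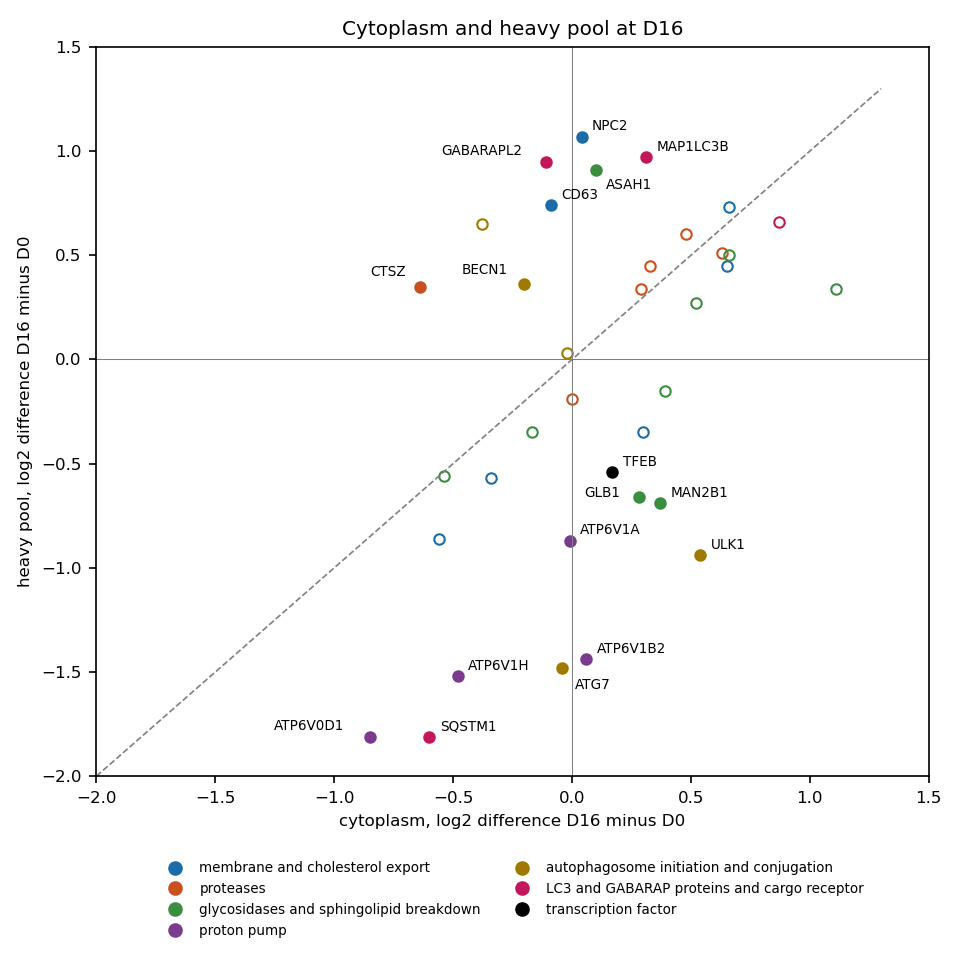
Log2 difference from D0 at D16 in the cytoplasm (horizontal axis) and the heavy pool (vertical axis) for the 36 members, colored by role, with filled points where the association change was called and a dashed line where both are equal. The 4 pump subunits of the list, SQSTM1 and ATG7 lie far under the line and NPC2, GABARAPL2 and MAP1LC3B above it. With scaling to total reads the association calls of ATP6V1A (-0.60, adjusted p = 0.304) and ATP6V0D1 (-0.71, adjusted p = 0.159) end. GUSB and NPC1 near -0.35 in the heavy pool move to 0.08 and 0.07 with that scaling.

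Other genes of the pathway were counted from lists of their own. Of 33 further lysosomal enzymes and activators in the table, 10 were higher and 3 lower in the cytoplasm at D2 (14.2% and 10.6% of all genes) and 18 and 6 in the heavy pool (30.4% and 34.5%). FUCA1, the lysosomal fucosidase, rose by 1.84 ± 0.16 and 1.84 ± 0.12 in these fractions, CTSO, a cysteine protease, by 2.16 ± 0.44 and 2.07 ± 0.28 at D16, and IDUA, the iduronidase, by 1.79 ± 0.49 in the cytoplasm at D14. SGSH, the sulfamidase, was at -1.70 ± 0.17 in the heavy pool at D7. Of 26 further membrane and sorting genes, 19 were higher and 1 lower in the heavy pool at D2 (30.4% and 34.5% of all genes). LAMP3, a member of the LAMP family, rose by 4.15 ± 0.49 and 4.70 ± 0.16, ABCB9, a lysosomal peptide transporter, by 1.97 ± 0.29 and 1.75 ± 0.11, and SIDT2, a lysosomal membrane protein, by 1.56 ± 0.40 and 1.67 ± 0.15, in the cytoplasm and the heavy pool at D2.

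Of 12 other subunits of the proton pump in the table, 9 were higher and 1 lower in the heavy pool at D2 (30.4% and 34.5% of all genes), and 5 higher and 3 lower at D16 (36.2% and 36.6%), with a median of 0.23 at D16. The association of 5 of these 12 rose at D16 (11.6% of all genes). The difference between these 12 and the 4 members was not tested. ATP6V0E1 (1.47 ± 0.12 at D7), ATP6V1G1 (1.34 ± 0.09 at D14) and the accessory protein ATP6AP2 (1.63 ± 0.12 at D2) rose in the heavy pool, and ATP6V1F rose by 1.70 ± 0.30 in the cytoplasm at D7.

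Of 34 further autophagy genes, 19 were higher and 7 lower in the heavy pool at D2 (30.4% and 34.5% of all genes). At D16 the counts were 10 and 14, near the shares of all genes (36.2% and 36.6%). OPTN, an autophagy receptor like SQSTM1, rose by 2.28 ± 0.28 in the cytoplasm and 2.45 ± 0.09 in the heavy pool at D2. WIPI1, a relative of WIPI2, rose by 1.42 ± 0.16 at D2 in the cytoplasm and 1.85 ± 0.12 at D14 in the heavy pool. ATG9A, the lipid scramblase of the growing vesicle, was at -2.51 ± 0.68 in the cytoplasm at D7 and -1.66 ± 0.16 in the heavy pool at D16. Of 21 genes of lysosomal signalling and TFEB control, 10 were higher and 9 lower in the heavy pool at D16 (36.2% and 36.6% of all genes). The kinase MTOR (-2.09 ± 0.12 at D14), its partner RPTOR (-1.56 ± 0.14 at D14) and its inhibitor TSC2 (-1.77 ± 0.13 at D16) fell there. In the cytoplasm at D7, ZKSCAN3, a repressor of autophagy genes (-1.61 ± 0.32), and FNIP2 (-1.60 ± 0.46) fell and LAMTOR4 (1.33 ± 0.32), of the complex that anchors mTORC1, rose. Of 7 p53 targets that act on autophagy or mTORC1, 6 were higher at D2 in each fraction (14.2% of all genes in the cytoplasm and 30.4% in the heavy pool). TP53INP1 rose by 3.89 ± 0.23 and 4.32 ± 0.15, DRAM1 by 2.41 ± 0.21 and 2.56 ± 0.12, and SESN1 by 2.35 ± 0.22 and 2.47 ± 0.12, in the cytoplasm and the heavy pool.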

How the data were processed

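Polyadenylated RNA of 36 libraries (6 days, cytoplasm and heavy polysome pool, letters A, B and C) was measured. The values are a deposited signal, gene counts normalised by the authors. Per the submitters' processing notes, the tools were FastQC 0.11.9, cutadapt 3.2, STAR 2.7.9a, featureCounts of Subread 2.0.1 and DESeq2 1.30.1 with GRCh38, and the strand setting is not given in the sources used here. The dUTP kit marks strand, so for CD63, NPC1, NPC2, CTSA, BECN1, ATG5, ATG7, SQSTM1 and MAP1LC3B, which overlap a listed gene on the other strand, and for MCOLN1 and GLB1, which overlap one on their own strand, the split of reads could not be checked. Of the columns, 18 match no sample and were not used.

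In R 4.3.3, limma 3.58.1 (eBayes with trend) was fitted to log2(value + 1) of genes at 10 or more in at least 3 libraries, separately for each fraction (18 libraries, 15889 and 15852 genes) and over all 36 libraries (15891 genes) for association, with two-sided tests, Benjamini-Hochberg adjustment over all genes and calls at 0.05. The code was tested on simulated data. Whole reads were recovered from 100% of values (within 0.01) for edgeR 4.0.16 and DESeq2 1.42.0. Other alternatives were a pseudocount of 10, no filter, scaling to total reads, letter or collection blocks, library weights and each library left out. Centring on GC content and on exon length was added after seeing the data.

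The letter is given as the batch, so it may pair libraries of a fraction. Of 45 same-letter pairs of days, 28 in the cytoplasm (mean r = 0.24) and 25 in the heavy pool (mean r = 0.11) had deviations correlated above 0.1, and 5 of 18 did so between fractions (mean r = -0.02).

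The members and lists were chosen with earlier results of these data known. Library values are printed for TFEB, LAMP1, CTSD, SQSTM1, MAP1LC3B and the 2 members of each other role group with the largest called difference. Those of PSAP, ASAH1 and CTSZ were added after their values were seen. From each further list the 3 largest called differences per fraction are named. Coordinates are from GENCODE release 29 (GRCh38).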

Additional observations from a re-analysis of the deposited data

Results flagged for a closer look

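CTSZ at D16 stood out because its 2 fractions moved in opposite directions. The cysteine cathepsin was at -0.64 ± 0.21 in the cytoplasm (limma, adjusted p = 0.0464) and at 0.35 ± 0.11 in the heavy pool (adjusted p = 0.00569). The difference between these changes was tested as an interaction and came to 1.00 ± 0.24 (adjusted p = 0.0025), in 3 against 3 libraries of each fraction. The cytoplasmic counts were 10245, 9281 and 9443 at D0 and 6479, 6218 and 5828 at D16, and the heavy pool counts were 5494, 5958 and 5684 at D0 and 6985, 6543 and 8500 at D16, with no overlap in either fraction. The cytoplasmic call was lost with edgeR and when any 1 of its 6 libraries was left out (adjusted p = 0.0881 to 0.142). Its heavy pool difference was 0.03 after centring on exon length.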

How the results depend on the processing

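Among counts of called members, scaling to total reads gave 4 for the cytoplasm at D1 and 4 at D16, and for association 0 at D1, 5 at D7, 10 at D14 and 11 at D16. Over all genes it gave 2063 and 2136 of 15887 for the cytoplasm. For association it gave 44, 1588, 3151 and 3785 of 15891 genes on those days. edgeR gave 4 for the cytoplasm at D16 and 1 for association at D1 and at D7, and DESeq2 gave 6 for association at D1. Over all genes edgeR called 2621 of 15889 for the cytoplasm and 403 and 636 of 15891 for association. DESeq2 called 1417 of 14041 genes for association at D1. Library weights, whose estimation stopped short of its tolerance in some fits, gave 21, 24, 29, 15 and 20 for the cytoplasm from D1 to D16, 24 for D7 against D2 and 2 for D16 against D14, and for association 21 at D1, 20 at D7 and 35 over any day. Of 15889 genes, the weights called 7485, 9577, 9992, 7264 and 8427 from D1 to D16 in the cytoplasm. They called 10195 genes for D7 against D2 and 923 for D16 against D14. For association they called 7019, 5369 and 12962 of 15891 genes. Centring on GC content gave 22, 9 and 11 for the cytoplasm at D7, D14 and D16 and 0 for association at D1, where centring on exon length gave 7. Over all genes GC centring called 7137, 3594 and 4332 of 15888 for the cytoplasm. For association at D1 it called 198 of 15890 genes, and exon length centring called 712 of 15891. The cause was not tested for any of these. Scaling to total reads took called falls of the heavy pool to 0.03 for ATP6V1H and 0.06 for CTSA at D2, 0.04 for ATP6V1H at D7, 0.05 for TFEB, 0.00 for LAMP1 and 0.07 for MCOLN1 at D14, and 0.08 for GUSB and 0.07 for NPC1 at D16. Centring on exon length took NPC1 at D14 to 0.05.

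With the letter as a replicate block, the count was 19 for the cytoplasm at D7 against D2, 5 for association at D1 and 1 at D2. Over all genes it was 5120 of 15889, and 1108 and 429 of 15891. The block ended the call of MCOLN1 in the heavy pool at D14 (-0.25, adjusted p = 0.0511) and no other member's call. With the collection of fraction pairs as a replicate block, association gave 0 at D1 and 1 at D7, and 8 of 56 association calls were lost. Over all 15891 genes that block gave 18 at D1 and 274 at D7.

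With each library left out in turn, the cytoplasm gave 3 to 10 called members at D1, 9 to 13 at D2, 10 to 16 at D7, 2 to 4 at D14, 2 to 6 at D16, 7 to 16 for D7 against D2, 13 to 17 for D14 against D7, 0 for D16 against D14 and 29 to 30 over any day. The heavy pool gave 12 to 17, 24 to 26, 22 to 25, 23 to 27 and 29 to 31 from D1 to D16, 24 to 27 for D7 against D2, 27 to 28 for D14 against D7, 4 to 7 for D16 against D14 and 36 over any day. The D0 difference between fractions gave 17 to 19, and association gave 0 to 4, 0 to 1, 1 to 5, 10 to 16 and 12 to 18 from D1 to D16 and 20 to 25 over any day. Leaving out some 1 library ended 35 of 78 member calls in the cytoplasm, 31 of 190 in the heavy pool and 19 of 56 in association. Counts were simulated with spreads estimated with scaling to total reads and not with the deposited scaling. In them a 2-fold change at D2 was recovered for 10 of 50 genes in the cytoplasm. It was recovered for 12 of 50 in association and 42 of 50 in the heavy pool. For a 1.5-fold change the numbers were 0, 1 and 31 of 50. Fewer genes were changed there than were called at D2 in the data. Most changes of 2-fold or less were thus missed in the cytoplasm and in association, and a missing call there does not show a lack of change.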
